A study of Mus musculus with 23 samples.

Results

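The kinesin, dynein and dynactin motor subunits described here are the 63 genes, of 38924 in the deposited files, whose symbols follow the naming of the Kif kinesins, the kinesin light chains Klc1 to Klc4, the Dync and Dynl dynein chains and the Dctn dynactin subunits. The choice was by symbol alone and used no measured value, though it was made with earlier results of these data known. All 63 matched GENCODE M21 by identifier and lie on 18 chromosomes.

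Kinesins are motor proteins that walk along microtubules, mostly toward the plus end, and in an axon this carries cargo away from the cell body. Cytoplasmic dynein-1 walks the other way and needs the dynactin complex to run far, so in an axon it carries endosomes and survival signals back to the cell body. Motor neurons have very long axons, and mutations in KIF5A, DCTN1 and DYNC1H1 are known in people with inherited motor neuron disease or neuropathy.

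The samples were anti-haemagglutinin precipitates of mouse spinal cord at 2 weeks of age, made by the RiboTag method. In that method Cre recombinase switches on a tagged ribosomal protein, Rpl22, and the RNA bound to tagged ribosomes is pulled down and sequenced. Gars encodes glycyl-tRNA synthetase, and GarsC201R is a mutant allele used as a mouse model of Charcot-Marie-Tooth neuropathy. ChAT-Cre acts in every cholinergic cell, so motor neurons are its main but not its only target in the cord.

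There were 4 groups, on a B6.CgxB6.129 background. C201R Cre libraries (n = 6) carried the genotype Rpl+/-;Chat+/-;C201R+/-. Wild-type Cre libraries (n = 5) were Rpl+/-;Chat+/-;C201R+/+. C201R no-Cre libraries (n = 6) were Rpl+/-;Chat+/+;C201R+/-, and wild-type no-Cre libraries (n = 6) were Rpl+/-;Chat+/+;C201R+/+. All groups thus carried 1 copy of the tag allele, and the no-Cre groups measured what the antibody and beads brought down without the tag being switched on. Separate animals are not stated for the libraries of a group, so p-values measure only the spread between libraries. The replicate numbers used here follow the order of the samples, and the 5 values of the wild-type Cre group are given in that order.

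Library totals ran from 9031654 to 19671869 expected counts, and most of these fell on ribosomal RNA-like genes. The 63 members together had 31031 to 93112 counts in C201R Cre, 14623 to 59975 in wild-type Cre, 4481 to 46657 in C201R no-Cre and 17700 to 54125 in wild-type no-Cre libraries. These were 1.06 to 1.50%, 1.21 to 1.36%, 0.703 to 1.11% and 0.558 to 1.08% of the counts outside ribosomal RNA, in that order of groups. Levels are given as CPM, counts relative to a library size scaled by TMM, a factor that aligns the bulk of the genes between libraries. The labelled cell type was present: all 10 detected motor neuron and cholinergic markers were called higher with Cre, and their summed level had medians of 516 CPM in C201R Cre and 652 CPM in wild-type Cre libraries, against 26.5 CPM in C201R no-Cre and 35.7 CPM in wild-type no-Cre libraries. Lhx3 was at 0 in every C201R no-Cre library. The 10 oligodendrocyte markers had summed medians of 1717 CPM in C201R Cre and 763 CPM in wild-type Cre libraries, against 8662 CPM in C201R no-Cre and 9330 CPM in wild-type no-Cre libraries. Among the Cre libraries, C201R Cre replicates 4 and 6 and wild-type Cre replicate 2 stood apart, with oligodendrocyte sums of 5157, 7107 and 3015 CPM, against 803 to 2112 CPM in the other C201R Cre and 546 to 774 CPM in the other wild-type Cre libraries. C201R Cre replicates 4 and 6 also shared a title number, the number that opens a sample title and whose meaning is not stated. It was 18405, which no wild-type library carried. C201R no-Cre replicate 5 had the fewest counts outside ribosomal RNA. Results are therefore also given without these 4 libraries.

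The promoters of several members carry short words known as binding sites, and some of those before genes whose level differed with Cre are shown. Of the 63 members, 49 had an entry in the RefSeq promoter table (GRCm38.p6), and the 250 bases before each start were searched on both strands. The NRF1 word, which is GCGC, any 1 base and TGCGC, or its reverse complement, was found in 3 of 14 members higher with Cre, in 2 of 18 lower members and in 1 of 17 members not called, and in 4.23% of all 27025 genes with an entry. The cAMP response element, TGACGTCA, was found in 3 of 14, 1 of 18 and 0 of 17 of these members and in 1.77% of all genes. The cell cycle homology region word, TTTGAA, was found in 1 of 14, 3 of 18 and 5 of 17 members and in 18.3% of all genes. The words do not overlap one another within the windows printed here, and a match is a string of letters, not a shown binding site. Left out are the NRF1 word of Kif18b and Dynlt1c and the cAMP response element of Kif17, all lower with Cre. So are the cell cycle homology region words of Dctn1, higher with Cre, and Kif14, lower. The printed choice therefore shows no link between a word and a direction. The windows below run 5′ to 3′ on the gene's strand, with the matched letters in capitals. The first 3 hold the NRF1 word, in Dync1li1 (chr9:114688623-114688692, plus strand), Dctn5 (chr7:122132935-122133004, plus strand) and Kif2a (chr13:107022378-107022447, minus strand).
Dync1li1: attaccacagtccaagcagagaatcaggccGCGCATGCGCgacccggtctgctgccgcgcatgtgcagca
Dctn5: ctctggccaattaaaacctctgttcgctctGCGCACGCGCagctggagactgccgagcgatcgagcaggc
Kif2a: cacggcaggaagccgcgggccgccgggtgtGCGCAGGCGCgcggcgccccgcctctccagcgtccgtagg
The next 3 hold the cAMP response element, in Dctn3 (chr4:41723207-41723274, minus strand), Klc1 (chr12:111758805-111758867, plus strand) and Kif5c (chr2:49619230-49619285, plus strand).
Dctn3: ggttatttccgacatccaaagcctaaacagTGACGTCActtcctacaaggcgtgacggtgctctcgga
Klc1: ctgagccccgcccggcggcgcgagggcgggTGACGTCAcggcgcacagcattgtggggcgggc
Kif5c: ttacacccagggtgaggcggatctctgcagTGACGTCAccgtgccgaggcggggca
The last 2 hold TTCAAA, which is TTTGAA read from the other strand, at the same distance of 19 to 14 bases before the start in the mitotic kinesins Kif15 (chr9:122951032-122951080, plus strand) and Kif11 (chr19:37376333-37376381, plus strand).
Kif15: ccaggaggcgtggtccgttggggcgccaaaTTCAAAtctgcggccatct
Kif11: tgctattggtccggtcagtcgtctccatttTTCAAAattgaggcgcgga

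Cre was compared with no Cre to ask which motor subunits were on ribosomes of ChAT-Cre cells above the background of the precipitation. The dynein-1 chains Dync1i1 and Dync1li1, 5 of 6 Dctn subunits, the light chains Klc1 and Klc2 and the heavy chains Kif5a and Kif5c were higher with Cre. Other subunits of axonal transport were not called (Dync1h1, Dync1i2, Dync1li2, Dctn4 and Kif1a) or were lower (Kif5b and Kif1b). Lower too were Kif1c, Kif13a, Kif13b and Kif21b and 6 of 9 mitotic kinesins of families other than kinesin-3 and kinesin-4. Averaged over both genotypes, 17 members were higher, 22 were lower and 19 were not called, of 58 tested, at an adjusted p under 0.05. Of all 14468 genes tested, 56.8% were called (22.1% higher and 34.7% lower), so a call by itself was common. The median log2 fold change was -0.22 over the 58 members and -0.28 over all genes tested. A call is thus relative to this scaling. With library totals alone the median of all genes was 0.39 and the members split into 18 higher and 6 lower.

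The members divided by level. Of 30 members with a mean of at least 10 CPM over all libraries, 17 were higher and 5 were lower with Cre, against 38.9% higher and 32.3% lower among all genes at that level. Of the 33 members under 10 CPM, 28 were tested, and 0 were higher and 17 lower, against 15.6% and 35.6% of all genes at that level. Of these 33, 17 passed the count filter among Cre libraries alone and 21 among no-Cre libraries alone, so the second split was in part shaped by the filter. The 5 untested members were Klc3, Kif2b, Kif2c, Kif12 and Dynlrb2. Dynlrb2, a dynein light chain of ciliated cells that also stands in the ependymal marker list, had 25 counts in C201R Cre, 2 in wild-type Cre, 6 in C201R no-Cre and 6 in wild-type no-Cre libraries, summed over each group. Without the 4 libraries that stood apart, 20 members were higher and 20 lower, beside 25.3% higher and 34.5% lower among all genes in that fit.

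Within wild type, 15 members were higher and 14 lower with Cre, of 48 tested, beside 46.0% of all genes called (20.0% higher and 25.9% lower). With library totals alone, 7 were called in wild type, 3 higher and 4 lower, beside 7.26% of all genes. Within C201R, 11 were higher and 12 lower, of 52 tested, beside 33.3% of all genes called (14.1% higher and 19.2% lower). In wild type, 12 members had every Cre library above every no-Cre library and 9 had every Cre library below, beside 13.3% and 14.8% of all genes. In C201R, 6 members lay wholly above and 4 wholly below, beside 9.71% and 7.83% of all genes. The 6 that lay above in C201R were Dync1i1, Dync1li1, Dynlrb1, Dctn3, Dctn5 and Dctn6, and all of them also lay above in wild type. Without the libraries that stood apart, 15 were higher and 13 lower in wild type, beside 46.2% of all genes called, and 16 were higher and 13 lower in C201R, beside 44.3%. Title number 18405, the 1 number shared by both C201R groups, held 2 Cre libraries, replicates 4 and 6, and 1 no-Cre library. No count of calls is therefore given for it. Within it, Kif5a, Dctn1 and Dync1h1 differed by -0.17, 1.26 and 0.22 in log2 of CPM plus 1, Cre against no Cre.

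**Figure D1:**
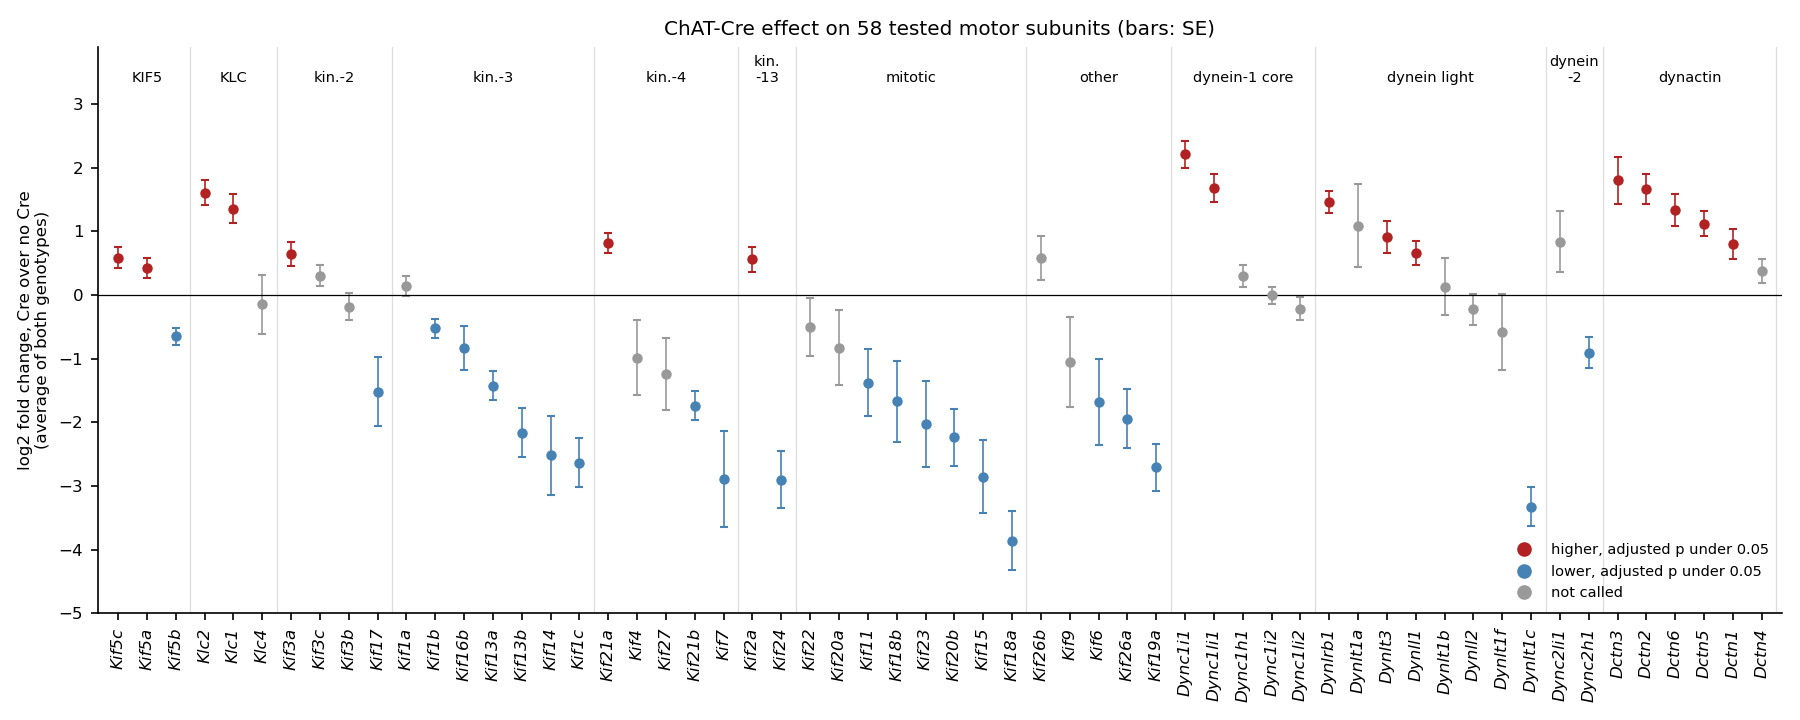
Log2 fold change of Cre against no Cre, averaged over genotypes, for the 58 tested members arranged by subunit family. Points are edgeR estimates and bars are standard errors, in red for higher, blue for lower and grey for not called. The largest increase is Dync1i1 at 2.21, and Kif18a is lowest at -3.86.

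The kinesin-1 heavy chains are the motors of fast axonal transport, and they did not move together. Kif5a and Kif5c, the neuronal forms, were higher with Cre, and Kif5b, the form made in most cells, was lower. Kif5a (chr10:127225696-127263348, minus strand) had 88.3 to 202.5 CPM (median 173) in C201R Cre libraries and 241, 184, 228, 180.0 and 221 CPM in wild-type Cre libraries. It had 106 to 170.1 CPM (median 131) in C201R no-Cre and 102 to 162 CPM (median 136) in wild-type no-Cre libraries. Every wild-type Cre library lay above every wild-type no-Cre library, whereas the C201R groups overlapped, with the lowest Cre values in replicates 4 and 6. The Kif5a log2 fold change averaged 0.43 (SE 0.16, adjusted p = 0.0213). It was 0.73 (SE 0.21, adjusted p = 0.0111) in wild type and 0.15 (SE 0.24, adjusted p = 0.65) in C201R.

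Kif5c had 87.3 to 261 CPM (median 204) in C201R Cre and 187, 202, 223, 183 and 202 CPM in wild-type Cre libraries, against 103 to 143 CPM in C201R no-Cre and 106 to 177 CPM in wild-type no-Cre libraries. Its log2 fold change averaged 0.59 (SE 0.16, adjusted p = 0.00334), with no overlap in wild type. In C201R alone Kif5c was not called (adjusted p = 0.123). Kif5b had 81.3 to 118 CPM (median 89.1) in C201R Cre and 61.2, 96.8, 86.1, 66.6 and 72.6 CPM in wild-type Cre libraries, against 109 to 163 CPM (median 124) in C201R no-Cre and 100.2 to 171 CPM (median 138) in wild-type no-Cre libraries. Kif5b fell by 0.65 in log2 (SE 0.14, adjusted p = 0.000289), although with library totals alone its average was 0.01. All wild-type Cre libraries lay below the wild-type no-Cre libraries, and all 10 oligodendrocyte markers were called lower with Cre as well. Their part in the Kif5b result was not tested.

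Kinesin light chains join the kinesin-1 heavy chains to cargo. Klc1 and Klc2 rose with Cre, Klc4 was not called and Klc3 was too low to test. Klc2 had 53.8 to 154 CPM (median 109) in C201R Cre and 101, 117, 108, 85.1 and 122 CPM in wild-type Cre libraries. It had 24.8 to 69.2 CPM (median 32.9) in C201R no-Cre and 19.1 to 41.1 CPM (median 31.1) in wild-type no-Cre libraries. The wild-type groups did not overlap, and in C201R 1 high no-Cre library reached into the Cre range. The log2 fold change of Klc2 averaged 1.61 (SE 0.20, adjusted p = 1.45e-07). Klc1 averaged 1.36 (SE 0.23, adjusted p = 1.79e-05), with 111 to 231 CPM in C201R Cre and 274, 167, 250.5, 229 and 213 CPM in wild-type Cre libraries, against 40.1 to 114 CPM in C201R no-Cre and 40.7 to 174 CPM in wild-type no-Cre libraries. In both genotypes the Klc1 ranges overlapped at their edges.

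The kinesin-2 motors carry vesicles and build cilia. Kif3a, the subunit shared by both heterotrimers, rose, and Kif17, the homodimer, fell, while Kif3b and Kif3c were not called. Kif3a had 30.2 to 60.1 CPM (median 51.3) in C201R Cre and 66.99, 45.1, 60.1, 51.6 and 55.8 CPM in wild-type Cre libraries, against 18.5 to 57.2 CPM (median 30.9) in C201R no-Cre and 19.9 to 46.2 CPM (median 29.1) in wild-type no-Cre libraries. These ranges overlapped in both genotypes. The average log2 fold change was 0.65 (SE 0.19, adjusted p = 0.00479), but Kif3a was not called in C201R alone (adjusted p = 0.296). Kif17 stayed at low levels, with medians of 0.470 CPM in C201R Cre, 0.579 CPM in wild-type Cre, 1.44 CPM in C201R no-Cre and 1.12 CPM in wild-type no-Cre libraries. Kif17 fell by 1.52 (SE 0.54, adjusted p = 0.0184), but it was not called in wild type alone (adjusted p = 0.357). Scaled by library totals alone, Kif17 was at -0.45 in the average and was no longer called (adjusted p = 0.634). Kif17 passed the count filter among no-Cre libraries alone but not among Cre libraries alone, so its test was shaped by the filter. Kif3c had 23.2 to 39.9 CPM in C201R Cre and 34.3, 40.3, 32.0, 33.2 and 39.1 CPM in wild-type Cre libraries, against 18.2 to 46.7 CPM in C201R no-Cre and 24.6 to 31.6 CPM in wild-type no-Cre libraries. The wild-type groups of Kif3c did not overlap, yet its average of 0.31 (SE 0.16) missed the threshold (adjusted p = 0.107).

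The kinesin-3 motors carry synaptic vesicle precursors, dense core vesicles and endosomes. Of 7 members, 6 were lower with Cre and 0 were higher, beside 34.7% of all genes lower. Kif1a, the synaptic vesicle precursor motor, was not called. It had 187 to 381 CPM (median 309) in C201R Cre and 248, 333, 314, 305 and 350.1 CPM in wild-type Cre libraries, against 174 to 303 CPM (median 261) in C201R no-Cre and 230.3 to 408 CPM (median 297) in wild-type no-Cre libraries. Kif1c, a motor made in many cell types, had 1.42 to 12.8 CPM (median 2.39) in C201R Cre and 4.16, 3.73, 1.65, 1.66 and 1.59 CPM in wild-type Cre libraries. It had 11.2 to 19.4 CPM (median 16.1) in C201R no-Cre and 9.27 to 79.7 CPM (median 16.4) in wild-type no-Cre libraries. All but 1 C201R Cre library lay below every C201R no-Cre library, the exception being C201R Cre replicate 6, 1 of the 2 with the highest oligodendrocyte sums. Kif1c fell by 2.63 in log2 (SE 0.38, adjusted p = 1.8e-06).

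Among the other kinesin-3 motors, Kif13a, a carrier of recycling endosomes, fell by 1.42 (SE 0.23, adjusted p = 7.17e-06), with medians of 4.04 CPM in C201R Cre and 3.55 CPM in wild-type Cre libraries, against 10.1 CPM in C201R no-Cre and 11.6 CPM in wild-type no-Cre libraries. Kif13b fell by 2.16 (SE 0.39, adjusted p = 3.64e-05). Kif14, which acts in cytokinesis, fell by 2.52 (SE 0.62, adjusted p = 0.0012) from a low level. In C201R alone Kif14 was not called (adjusted p = 0.104). Kif14 passed the count filter among no-Cre libraries alone but not among Cre libraries alone, so its test was shaped by the filter. Kif1b and Kif16b fell by 0.52 and 0.83 (adjusted p = 0.00323 and 0.0452). Neither of these 2 was called in wild type alone (adjusted p = 0.059 and 0.0582) or in C201R alone (adjusted p = 0.0851 and 0.5145). With library totals alone, Kif13a, Kif13b and Kif14 were at -0.80, -1.40 and -1.53 and were no longer called (adjusted p = 0.21, 0.053 and 0.112).

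The kinesin-4 group split between 2 close relatives that regulate microtubule growth in neurons. Kif21a had 64.5 to 144 CPM (median 128) in C201R Cre and 129, 145, 157, 125 and 141 CPM in wild-type Cre libraries, against 52.7 to 95.0 CPM (median 68.3) in C201R no-Cre and 56.0 to 101 CPM (median 65.5) in wild-type no-Cre libraries. It rose by 0.82 in log2 (SE 0.16, adjusted p = 0.000111), with no overlap in wild type. In C201R alone Kif21a was not called (adjusted p = 0.0733). Kif21b had 5.92 to 15.4 CPM (median 7.14) in C201R Cre and 8.52, 10.2, 4.38, 5.13 and 2.84 CPM in wild-type Cre libraries. It had 16.0 to 38.7 CPM (median 27.4) in C201R no-Cre and 15.2 to 30.4 CPM (median 19.4) in wild-type no-Cre libraries. Kif21b was lower in every Cre library than in every no-Cre library of its genotype, in C201R by a narrow gap between 15.4 and 16.0 CPM. Its fall was 1.74 (SE 0.23, adjusted p = 3.49e-07). Scaled by library totals alone, Kif21b was at -0.91 in the average and was no longer called (adjusted p = 0.127). Kif7, a kinesin of Hedgehog signalling, fell by 2.89 (SE 0.75, adjusted p = 0.00184), while Kif27 and the mitotic Kif4 were not called. In C201R alone Kif7 was not called (adjusted p = 0.111). Scaled by library totals alone, Kif7 was at -1.35 in the average and was no longer called (adjusted p = 0.162). Kif7 passed the count filter among no-Cre libraries alone but not among Cre libraries alone, so its test was shaped by the filter.

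Of the 9 kinesins of other families that act in cell division, 8 were tested. With Cre 6 were lower and 0 higher, beside 35.6% lower and 15.6% higher among all genes under 10 CPM. Kif20a and Kif22 were not called (adjusted p = 0.23 and 0.357), and Kif2c was too low to test. Only 3 of the 9 passed the count filter among Cre libraries alone and 6 among no-Cre libraries alone. The count of lower members was thus shaped by the filter. Kif18a, which limits chromosome movement at the metaphase plate, had 0.329 to 1.08 CPM (median 0.496) in C201R Cre and 0, 0.351, 0.248, 0.528 and 0.341 CPM in wild-type Cre libraries. It had 2.65 to 7.63 CPM (median 3.87) in C201R no-Cre and 2.196 to 32.2 CPM (median 4.81) in wild-type no-Cre libraries. The groups did not overlap in either genotype, and Kif18a fell by 3.86 in log2 (SE 0.46, adjusted p = 6.77e-08). Kif15, Kif20b and Kif23, of the spindle and midbody, fell by 2.85, 2.23 and 2.02 (adjusted p = 0.000129, 0.000132 and 0.0121). Kif18b and the spindle motor Kif11 fell by 1.67 and 1.38 (adjusted p = 0.0272 and 0.0284). Kif15, Kif18b and Kif23 were tested in neither genotype alone, and Kif11 was not called in C201R alone (adjusted p = 0.604). Scaled by library totals alone, Kif20b and Kif23 were no longer called in the average (adjusted p = 0.0776 and 0.189). The 8 proliferating cell markers had summed medians of 8.53 CPM in C201R Cre and 5.75 CPM in wild-type Cre libraries, against 47.3 CPM in C201R no-Cre and 39.2 CPM in wild-type no-Cre libraries, and 6 of the 8 were called lower. Their part in the kinesin result was not tested. In bulk precipitates, fewer cells of a type and less RNA per cell cannot be told apart.

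Of the remaining kinesins, Kif2a, which depolymerises microtubules and trims axon branches, rose by 0.57 (SE 0.20, adjusted p = 0.0165). It was called in neither wild type nor C201R alone (adjusted p = 0.154 and 0.0774). Nor was Kif2a called in the average with library totals alone (adjusted p = 0.0686). Kif24, a centriole kinesin, fell by 2.90 (SE 0.44, adjusted p = 3.67e-06). Its medians were 0.959 CPM in C201R Cre and 0.438 CPM in wild-type Cre libraries, against 4.57 CPM in C201R no-Cre and 4.34 CPM in wild-type no-Cre libraries. Kif19a, which shortens motile cilia, fell by 2.70 (SE 0.37, adjusted p = 6.69e-07), with medians of 0.836 CPM in C201R Cre and 0.793 CPM in wild-type Cre libraries, against 6.79 CPM in C201R no-Cre and 5.49 CPM in wild-type no-Cre libraries. Kif26a and Kif6 fell by 1.94 and 1.68 (adjusted p = 0.000772 and 0.0354), and Kif26b and Kif9 were not called. In C201R alone Kif26a was not called (adjusted p = 0.236), and Kif6 was tested in neither genotype alone. Scaled by library totals alone, neither Kif26a nor Kif6 was called in the average (adjusted p = 0.236 and 0.294). The 6 ependymal markers in the files summed to medians of 2.21 CPM in C201R Cre and 1.96 CPM in wild-type Cre libraries, against 2.96 CPM in C201R no-Cre and 4.11 CPM in wild-type no-Cre libraries. Of these, 1 was tested and it was not called.

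**Figure D2:**
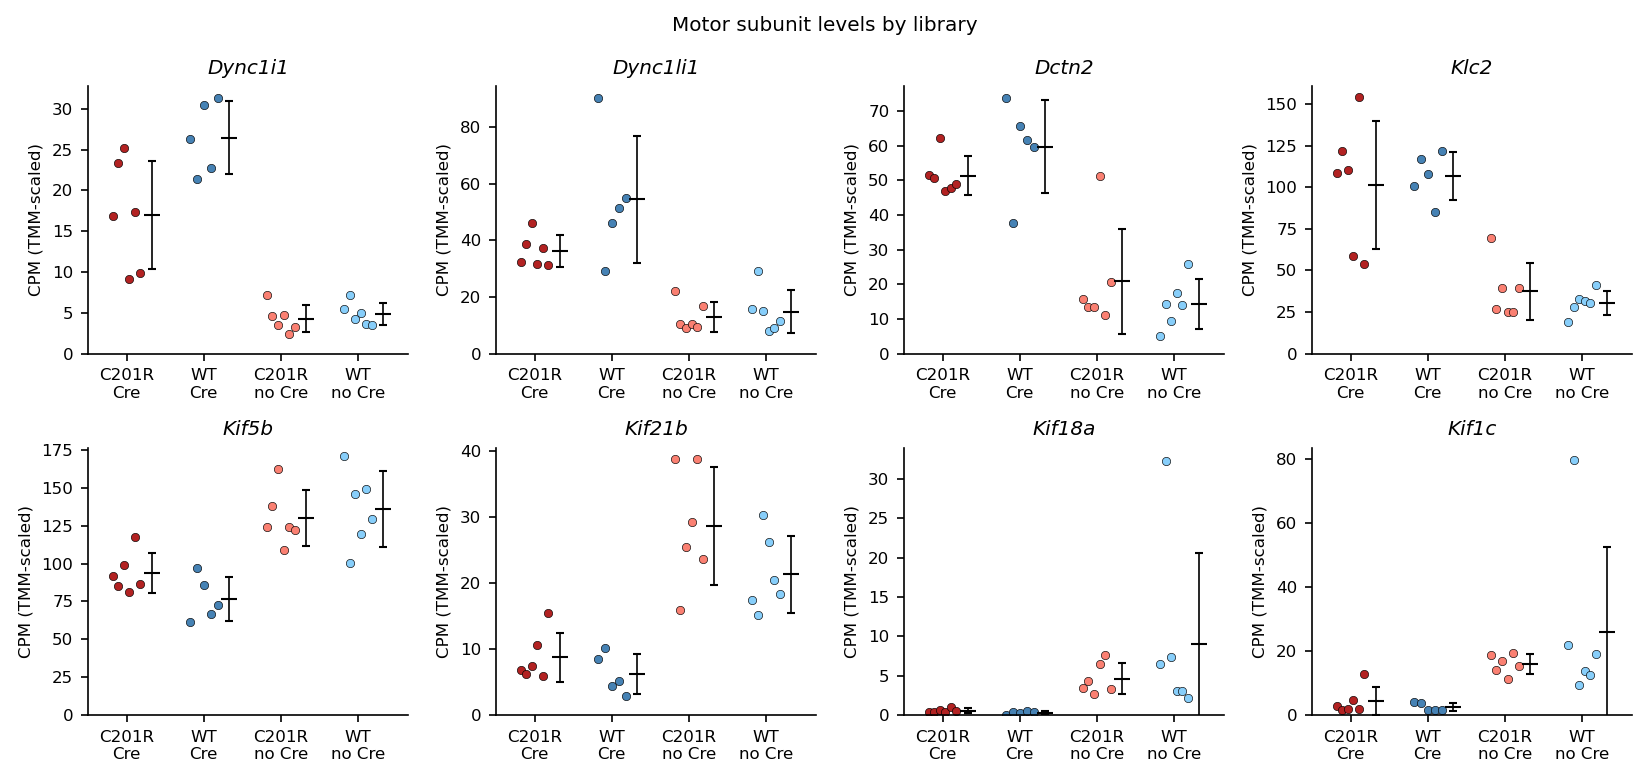
CPM of 8 members in each library of the 4 groups, in the order C201R Cre, wild-type Cre, C201R no-Cre and wild-type no-Cre. Points are libraries and bars are group means with SD. Dync1i1, Dync1li1, Dctn2 and Klc2 sit higher with Cre, and Kif5b, Kif21b, Kif18a and Kif1c sit lower.

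Cytoplasmic dynein-1 is built on the heavy chain Dync1h1, with paired intermediate chains that hold dynactin and light intermediate chains that hold cargo adaptors. Each of the smaller chains has a pair of gene copies, and 1 copy of each pair rose with Cre. Dync1i1, the intermediate chain form found mainly in neurons, had 9.11 to 25.1 CPM (median 17.1) in C201R Cre and 26.4, 21.4, 30.4, 22.8 and 31.4 CPM in wild-type Cre libraries. It had 2.35 to 7.17 CPM (median 4.04) in C201R no-Cre and 3.47 to 7.12 CPM (median 4.60) in wild-type no-Cre libraries. The groups were apart in both genotypes, and its log2 fold change averaged 2.21 (SE 0.21, adjusted p = 2.04e-09). It was 2.56 (SE 0.27, adjusted p = 3.98e-06) in wild type and 1.90 (SE 0.32, adjusted p = 0.000346) in C201R. Dync1i2, the form made in all tissues, had 27.4 to 50.0 CPM (median 34.6) in C201R Cre and 48.8, 33.6, 41.3, 44.8 and 42.4 CPM in wild-type Cre libraries, against 35.5 to 45.4 CPM (median 42.1) in C201R no-Cre and 31.7 to 45.8 CPM (median 34.4) in wild-type no-Cre libraries. Dync1i2 was not called (adjusted p = 0.994).

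Dync1li1 had 31.3 to 46.0 CPM (median 34.7) in C201R Cre and 90.4, 29.2, 46.3, 51.4 and 55.0 CPM in wild-type Cre libraries, against 8.84 to 22.2 CPM (median 10.4) in C201R no-Cre and 8.13 to 29.0 CPM (median 13.3) in wild-type no-Cre libraries. In both genotypes every Cre library exceeded every no-Cre library, in wild type by a narrow gap between 29.2 and 29.0 CPM. The average log2 fold change of Dync1li1 was 1.68 (SE 0.22, adjusted p = 3.35e-07). Its partner Dync1li2 was not called (adjusted p = 0.345). Dync1h1, the heavy chain that carries the motor itself, had 219 to 419 CPM (median 330.3) in C201R Cre and 326, 257, 378, 344 and 326 CPM in wild-type Cre libraries. It had 196 to 476 CPM (median 299) in C201R no-Cre and 162 to 272 CPM (median 216) in wild-type no-Cre libraries. These ranges overlapped in both genotypes. The average of 0.31 (SE 0.17) was not called (adjusted p = 0.129), whereas 0.69 in wild type (SE 0.23, adjusted p = 0.0196) was. In C201R it was -0.05 (SE 0.27, adjusted p = 0.899), and its sign changed in most alternatives.

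The light chains bind the intermediate chains and many other proteins. Dynlrb1, the roadblock chain, had 55.9 to 80.2 CPM (median 68.5) in C201R Cre and 102, 65.2, 97.3, 81.2 and 106 CPM in wild-type Cre libraries, against 18.2 to 37.3 CPM (median 29.3) in C201R no-Cre and 10.6 to 44.0 CPM (median 28.2) in wild-type no-Cre libraries. Every Cre library exceeded every no-Cre library of its genotype, and Dynlrb1 rose by 1.46 in log2 (SE 0.18, adjusted p = 8.99e-08). Dynlt3, a Tctex-type chain, and Dynll1, the LC8 chain, rose by 0.91 and 0.66 (adjusted p = 0.00284 and 0.00406), while the second LC8 gene Dynll2 was not called. In wild type alone Dynlt3 and Dynll1 were not called (adjusted p = 0.106 and 0.192). Dynlt1c, a Tctex1 copy, fell by 3.33 (SE 0.31, adjusted p = 1.19e-09). It had 0.376 to 2.35 CPM in C201R Cre and 1.58, 1.23, 0.413, 1.28 and 1.14 CPM in wild-type Cre libraries, against 9.03 to 26.9 CPM in C201R no-Cre and 4.75 to 17.4 CPM in wild-type no-Cre libraries.

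Dynlt1a, Dynlt1b, Dynlt1c and Dynlt1f are near-identical copies between which the authors' counting could have moved reads, so each of their values is uncertain. Their summed level was 8.13 ± 2.99 CPM in C201R Cre (SD, n = 6) and 4.05 ± 0.55 CPM in wild-type Cre (SD, n = 5), against 18.7 ± 8.01 CPM in C201R no-Cre (SD, n = 6) and 16.7 ± 4.19 CPM in wild-type no-Cre libraries (SD, n = 6). The sum was thus lower with Cre in both genotypes, as was Dynlt1c alone. Of the dynein-2 chains, which work inside cilia, the heavy chain Dync2h1 fell by 0.91 (SE 0.24, adjusted p = 0.00244). Scaled by library totals alone, Dync2h1 was at -0.41 in the average, no longer called (adjusted p = 0.57), and at 0.24 in C201R. Dync2li1 was not called.

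Dynactin joins dynein to cargo and to the microtubule. Of its 6 Dctn subunits, 5 rose with Cre and Dctn4 was not called, beside 38.9% higher among all genes of at least 10 CPM. The median log2 fold change of the 6 was 1.23, beside -0.28 for all genes tested. Dctn2, or dynamitin, which ties the arm of the complex to its filament, had 47.0 to 62.1 CPM (median 49.8) in C201R Cre and 73.7, 37.7, 65.7, 61.7 and 59.5 CPM in wild-type Cre libraries. It had 11.2 to 51.1 CPM (median 14.6) in C201R no-Cre and 5.07 to 25.8 CPM (median 14.1) in wild-type no-Cre libraries. In wild type the groups were apart, and in C201R 1 no-Cre library, replicate 4, lay within the Cre range. Dctn2 rose by 1.67 in log2 (SE 0.24, adjusted p = 1.55e-06).

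Dctn3, a partner of Dctn2 in the shoulder of the complex, had 14.2 to 27.1 CPM (median 15.3) in C201R Cre and 10.7, 18.1, 17.7, 15.0 and 18.7 CPM in wild-type Cre libraries, against 2.15 to 13.9 CPM (median 5.47) in C201R no-Cre and 0.140 to 7.38 CPM (median 3.38) in wild-type no-Cre libraries. It rose by 1.80 (SE 0.37, adjusted p = 0.000161). Dctn5 and Dctn6, of the pointed end, rose by 1.12 and 1.34 (adjusted p = 3.23e-05 and 5.67e-05). For Dctn3, Dctn5 and Dctn6, Cre and no-Cre libraries were separate in both genotypes. Dctn4, also of the pointed end, had 26.5 to 41.3 CPM in C201R Cre and 43.4, 36.3, 34.0, 34.4 and 29.1 CPM in wild-type Cre libraries, against 16.2 to 42.2 CPM in C201R no-Cre and 10.1 to 37.2 CPM in wild-type no-Cre libraries. Its average of 0.38 (SE 0.19) missed the threshold (adjusted p = 0.0848).

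Dctn1, or p150Glued, is the subunit that grips the microtubule and the dynein intermediate chain. It had 52.3 to 73.8 CPM (median 62.0) in C201R Cre and 198, 55.8, 110.4, 101 and 116 CPM in wild-type Cre libraries. It had 21.5 to 125.5 CPM (median 55.9) in C201R no-Cre and 26.2 to 59.7 CPM (median 39.6) in wild-type no-Cre libraries. The C201R no-Cre range enclosed the whole C201R Cre range, and in wild type 1 Cre library, replicate 2, fell among the no-Cre values. The average log2 fold change of Dctn1 was 0.80 (SE 0.24, adjusted p = 0.00537). It was 1.62 in wild type (SE 0.32, adjusted p = 0.000666) and 0.02 in C201R (SE 0.34, adjusted p = 0.978).

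In the C201R no-Cre and wild-type Cre groups, the level of Dctn1 moved with the share of counts on ribosomal RNA-like genes. In the C201R no-Cre group the 3 libraries with 65.8, 66.6 and 75.5% of such counts had 28.8, 21.5 and 45.4 CPM of Dctn1, and the 3 with 90.1, 92.0 and 95.6% had 66.8, 66.5 and 125.5 CPM. In the wild-type Cre group the libraries with 50.6, 78.2, 79.3, 80.3 and 89.0% had 55.8, 110.4, 101, 116 and 198 CPM. C201R Cre libraries held 53.0 to 75.3%, and C201R no-Cre libraries held 65.8 to 95.6%. In C201R the share and Cre thus partly coincide, and their effects on Dctn1 cannot be told apart. With this share as a covariate, a fit added after the data were seen, the log2 fold change of Dctn1 with Cre in C201R was 1.18 (adjusted p = 0.0388), and in wild type it was 1.49 (adjusted p = 5.2e-05). Under the same fit 18 members were higher and 15 lower in wild type, beside 47.5% of all genes called, and 9 were higher and 7 lower in C201R, beside 24.8%.

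Genes of the same pathway outside the symbol rule were also compared. Of 30 motor adaptors and regulators tested, 14 were higher and 6 lower with Cre, beside 22.1% higher and 34.7% lower among all genes, with a median log2 fold change of 0.24. Calsyntenin Clstn1, which links kinesin-1 to vesicles, and the scaffold Mapk8ip2 rose by 1.46 and 1.67 (adjusted p = 8.83e-10 and 4.21e-08). Trak2, the mitochondrial adaptor, and Hook3, a dynein activator, fell by 1.62 and 1.43 (adjusted p = 3.07e-08 and 3.42e-08). Of the 6 actin-related and capping subunits of the dynactin filament, 4 rose and 0 fell, beside 22.1% higher and 34.7% lower among all genes. These were Capzb by 1.01, Actr1b by 0.84, Actr1a by 0.62 and Capza2 by 0.50. In wild type alone only Actr1a and Capzb were called, and in C201R alone only Actr1b and Capzb. Of 16 axonemal dyneins tested, which beat cilia rather than carry cargo, 0 rose and 11 fell, beside 35.6% lower among all genes under 10 CPM. Only 5 of them passed the filter among Cre libraries alone and 11 among no-Cre libraries alone, so this count too was shaped by the filter. Dnah17 and Dnah8 fell by 3.86 and 3.04 (adjusted p = 6.82e-05 and 3.75e-05), and Dnah7b and Dnah9 by 2.51 and 2.35 (adjusted p = 1.59e-07 and 7.3e-05). Of 4 kinesins outside the rule, the mitotic Cenpe fell by 2.12 and Kifc2 by 0.90 (adjusted p = 1.44e-06 and 0.00165).

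The share of each motor within its own gene pair describes which copy was present, per length and free of library scaling. On TPM, the Dync1i1 share of both intermediate chains was 29.2 ± 12.3% in C201R Cre (SD, n = 6) and 34.7 ± 3.18% in wild-type Cre (SD, n = 5), against 6.72 ± 3.04% in C201R no-Cre (SD, n = 6) and 9.34 ± 2.71% in wild-type no-Cre libraries (SD, n = 6). Every Cre library had a higher Dync1i1 share than every no-Cre library, from 12.9% upward with Cre and up to 12.7% without. On expected counts the ranges met, with 16.5% in the lowest C201R Cre library and 18.4% in the highest wild-type no-Cre library. The Dync1li1 share of both light intermediate chains was 40.8 ± 5.09% in C201R Cre and 49.7 ± 15.0% in wild-type Cre, against 18.9 ± 5.95% in C201R no-Cre and 19.5 ± 11.6% in wild-type no-Cre libraries. The Dynll1 share of the LC8 pair was 69.7 ± 4.39% in C201R Cre, 53.8 ± 9.77% in wild-type Cre, 44.1 ± 8.60% in C201R no-Cre and 43.8 ± 16.9% in wild-type no-Cre libraries. These shares are descriptions with no test.

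The Kif5a share of the kinesin-1 heavy chains depended on the unit. On TPM it was 19.9 ± 3.61% in C201R Cre and 18.8 ± 3.62% in wild-type Cre, against 19.9 ± 7.70% in C201R no-Cre and 22.5 ± 5.99% in wild-type no-Cre libraries. On expected counts it was 35.8 ± 1.56% and 43.2 ± 4.07% in C201R and wild-type Cre, against 34.5 ± 4.26% and 33.5 ± 3.74% in C201R and wild-type no-Cre libraries. The effective length that the authors' files assign to Kif5c differed between groups, with medians of 2182 bases in C201R Cre and 1506 bases in wild-type Cre, against 2464 bases in C201R no-Cre and 3533 bases in wild-type no-Cre libraries. It was nearly constant for Kif5a, at 6160 to 6169 bases. The TPM and count shares of Kif5a therefore differ by more than scale. The Klc1 share of the light chains and the Kif3c share of Kif3b and Kif3c were 44.7% and 71.1% of TPM in C201R Cre, 49.6% and 75.8% in wild-type Cre, 49.3% and 68.3% in C201R no-Cre and 50.3% and 64.9% in wild-type no-Cre libraries, with overlapping ranges.

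**Figure D3:**
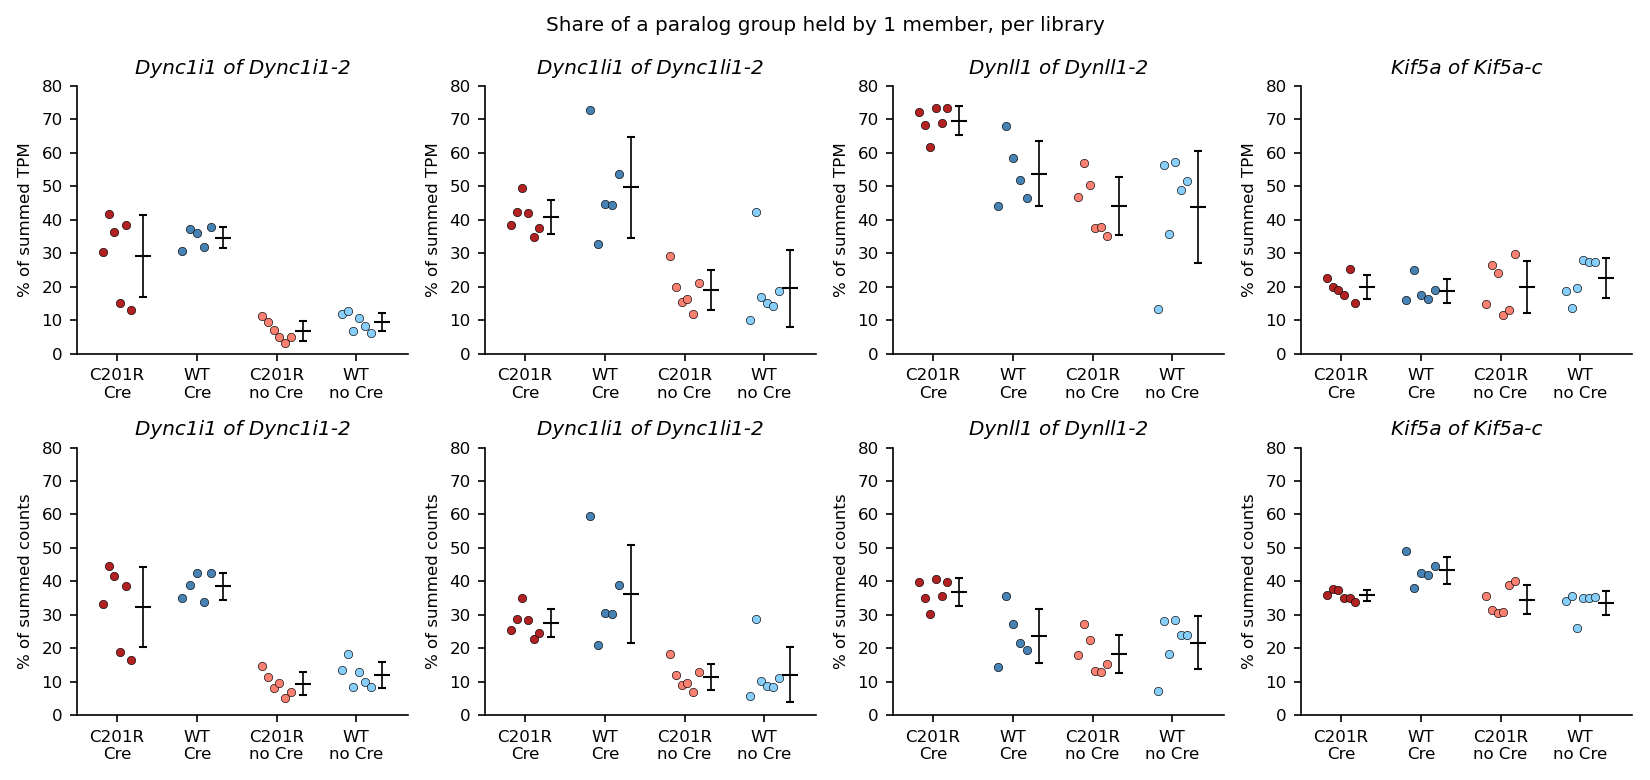
Share in percent of Dync1i1, Dync1li1, Dynll1 and Kif5a within their own gene pairs or trio, in each library by group, from TPM in the top row and from expected counts in the bottom row. Points are libraries and bars are means with SD. The Dync1i1 share averages 29.2% and 34.7% with Cre, against 6.72% and 9.34% without, whereas the Kif5a share is 18.8 to 22.5% in every group mean on TPM.

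Per length, the order of members also differed between groups. In C201R Cre libraries the highest mean TPM was that of Dynlrb1, at 279.7 ± 62.6 (SD, n = 6), followed by Klc2 at 261 ± 139.8, and their difference was within the spread. In wild-type Cre libraries the same pair led, with 193 ± 112 for Dynlrb1 and 153 ± 139.6 for Klc2 (SD, n = 5). In C201R no-Cre libraries Kif1b led with 95.8 ± 73.9 (SD, n = 6), and in wild-type no-Cre libraries it led with 148 ± 93.8 (SD, n = 6). TPM is taken over all features, ribosomal RNA included, so these levels also carry the ribosomal share of each library.

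C201R was then compared with wild type among Cre libraries, the comparison that asks how ribosome-bound RNA of ChAT-Cre cells differs with the Gars mutation. No member passed the threshold: 0 of 47 tested members were called by edgeR, beside 0.331% of all 12399 genes (0.234% higher and 0.0968% lower), and 9 members had an unadjusted p under 0.05, beside 17.0% of all genes. No member separated the groups, beside 1.09% of all genes wholly above and 1.19% wholly below. The median log2 fold change was 0.02 over the members and 0.06 over all genes tested. DESeq2 called 2 members, Dynll2 and Dctn1, beside 3.33% of all genes, and limma-voom with quality weights called Dynlrb1 as well, beside 7.0% of all genes. All of these were lower in C201R.

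The 2 smallest p-values belonged to Dynll2 and Dctn1. Dynll2, an LC8 light chain of dynein that also binds myosin V, had 56.1 to 99.9 CPM (median 72.3) in C201R Cre libraries and 209.9, 77.4, 123, 162 and 165 CPM in wild-type Cre libraries. Only wild-type Cre replicate 2 lay within the C201R range. The log2 fold change of Dynll2 was -0.95 (SE 0.25, adjusted p = 0.11). Dctn1 showed a like pattern, at 52.3 to 73.8 CPM in C201R Cre against 198, 55.8, 110.4, 101 and 116 CPM in wild-type Cre libraries, again with replicate 2 as the 1 wild-type library inside the C201R range. Its log2 fold change was -0.92 (SE 0.26, adjusted p = 0.126). Without wild-type Cre replicate 2, which is high in oligodendrocyte markers and lowest in ribosomal RNA-like share, 4 of 50 tested members were called, beside 8.41% of all genes, and Dynll2, Dctn1, Dync1li1 and Dynlrb1 were all lower in C201R. Without all 4 libraries that stood apart, 6 of 44 tested members were called, beside 10.9% of all genes, with Dynll2, Dctn1, Dync1li1, Dynlrb1 and Dync1i2 lower and Dynlt3 higher. In both of these fits the wild-type Cre libraries left held at least 78.2% of ribosomal RNA-like counts, and the C201R Cre libraries at most 75.3%. Share and genotype thus coincided fully there, and their effects on these calls cannot be told apart.

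The other dynein chains at the head of this list were also at lower values in C201R. Dync1i1 had 9.11 to 25.1 CPM in C201R Cre, against 21.4 to 31.4 CPM in wild-type Cre libraries, with a log2 fold change of -0.66 (SE 0.25, adjusted p = 0.231). Its 2 lowest values, 9.11 and 9.90 CPM, were in C201R replicates 4 and 6, whose motor neuron marker sums of 268 and 174 CPM were also the lowest, against 482 to 564 CPM in the other C201R Cre libraries. The part of cell content in this was not tested. For Dync1li1 the log2 fold change was -0.60 (SE 0.24, adjusted p = 0.248), and for Dynlrb1 it was -0.41 (SE 0.17, adjusted p = 0.262). Kif5a was at -0.46 (SE 0.21, adjusted p = 0.287) and Dync1h1 at -0.05 (SE 0.19, adjusted p = 0.9). At the other end, Dynlt1b, Kif11 and Kif26a were at 1.22, 1.65 and 1.50 (adjusted p = 0.189, 0.213 and 0.246), all at a few CPM or less in both groups.

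**Figure D4:**
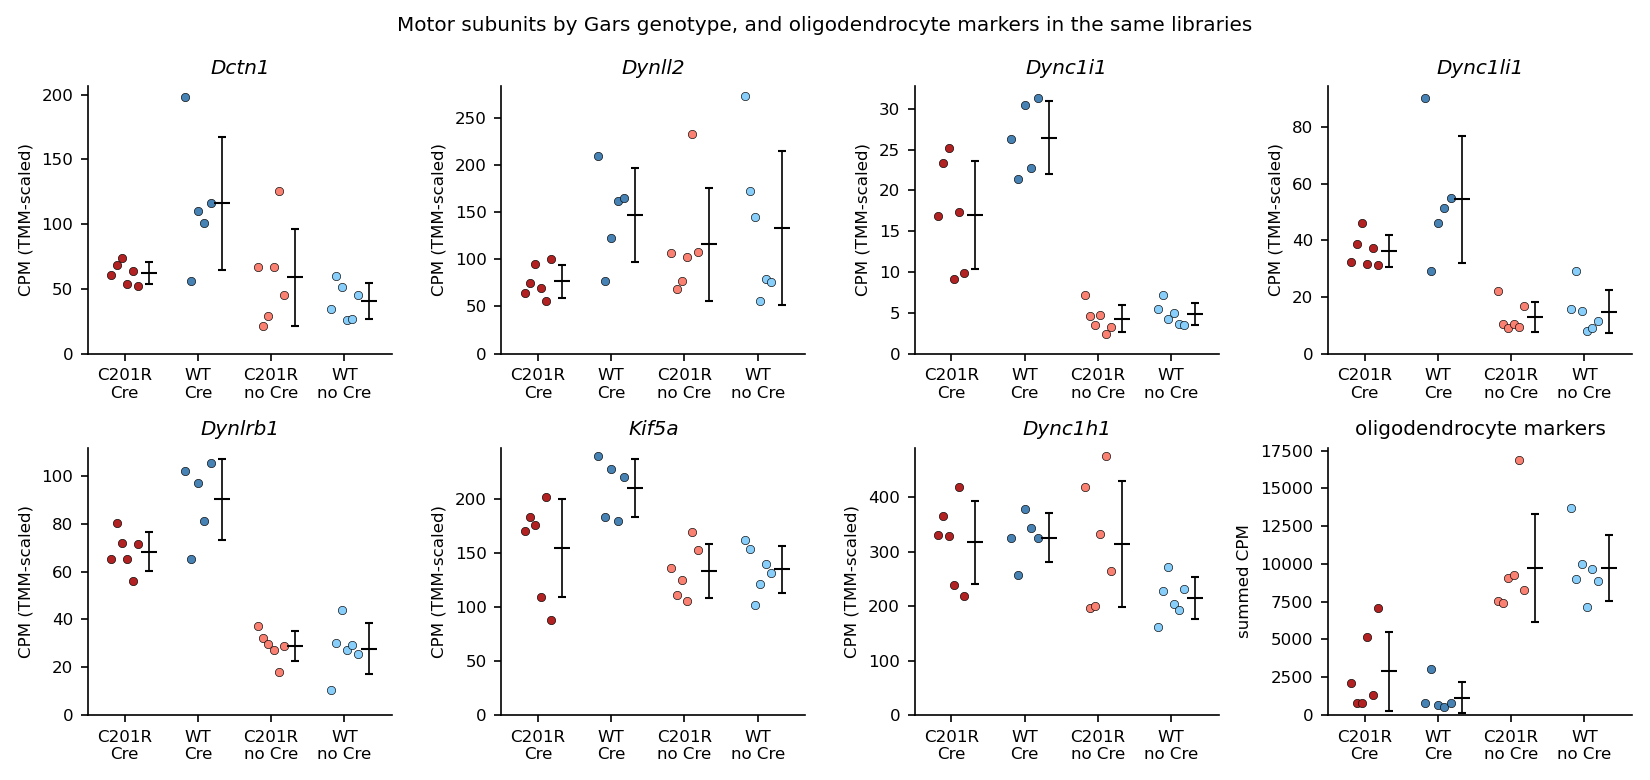
CPM of 7 members and the summed CPM of 10 oligodendrocyte markers in each library, by group, in the order C201R Cre, wild-type Cre, C201R no-Cre and wild-type no-Cre. Points are libraries and bars are means with SD. Dctn1 and Dynll2 sit at 52.3 to 73.8 and 56.1 to 99.9 CPM in C201R Cre libraries, while 4 of 5 wild-type Cre libraries lie above those ranges.

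The ribosomal RNA-like share differed between the genotypes, at 53.0 to 75.3% in C201R Cre against 50.6, 78.2, 79.3, 80.3 and 89.0% in wild-type Cre libraries. The Dynll2 level was lowest, 56.1 CPM, in the C201R Cre library with the lowest share and highest, 99.9 CPM, in the one with the highest share. Dctn1 did not follow the share within C201R Cre, where the library with the highest share had the lowest level, 52.3 CPM. With the share as a covariate, the log2 fold change was -0.36 for Dynll2 (adjusted p = 0.5) and -0.35 for Dctn1 (adjusted p = 0.612). It was -0.08 for Dync1li1, -0.13 for Dynlrb1, -0.58 for Dync1i1 and -0.50 for Kif5a, and 0 members were called. Because the share and the genotype largely coincide in these 11 libraries, their effects on Dynll2 and Dctn1 cannot be told apart. With library totals alone, Dynll2, Dctn1, Dync1i1, Dync1li1, Dynlrb1 and Kif5a were all at positive values, between 0.03 and 0.49, beside a median of 0.79 for all genes.

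Within dynactin, the Dctn1 share of the 6 Dctn subunits, a measure added after the data were seen, was 21.1 ± 2.04% of TPM in C201R Cre (SD, n = 6) and 35.4 ± 8.66% in wild-type Cre libraries (SD, n = 5). It was 38.6 ± 22.5% in C201R no-Cre and 37.8 ± 8.12% in wild-type no-Cre libraries. The lowest wild-type Cre value, 23.7%, was inside the C201R Cre range of 18.7 to 23.9%. That library held 50.6% of ribosomal RNA-like counts, and the wild-type Cre library with 89.0% of them had a Dctn1 share of 47.3%. In C201R no-Cre the highest Dctn1 share, 79.3%, was in the library with 95.6% of such counts. On expected counts the Dctn1 share was 31.3 ± 1.30% in C201R Cre and 42.4 ± 7.91% in wild-type Cre libraries. It was 42.0 ± 15.3% in C201R no-Cre and 42.2 ± 12.7% in wild-type no-Cre libraries. The median effective length assigned to Dctn1 was 2511 bases in C201R Cre and 2060 bases in wild-type Cre libraries, so the TPM share also carries this length. Neither the part of the ribosomal share nor that of the length was tested. For the other dynactin subunits no call was made, and the median log2 fold change over all 6 was -0.20.

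Without Cre, no member was called between C201R and wild type. By edgeR 0 of 51 tested members were called, beside 0.0% of all 12588 genes, and 0 members had an unadjusted p under 0.05, beside 4.49% of all genes. No members separated the groups, beside 0.0794% of genes above and 0.0953% below, and DESeq2 and limma-voom called 0 as well. Dync1h1 was at 0.54 (SE 0.28, adjusted p = 0.951), Dctn1 at 0.52 (SE 0.37, adjusted p = 0.951) and Kif5a at -0.03 (SE 0.24, adjusted p = 0.993). Of the others with the smallest p, Dynlt1f, Kif14, Kif16b, Kif18a, Kif1c and Dynll1 were at -1.57, -1.35, -1.04, -1.03, -0.74 and -0.47, and Kif21b was at 0.41. Most of these values rested on 1 library. Without wild-type no-Cre replicate 2, which had 32.2 CPM of Kif18a and 79.7 CPM of Kif1c, these were at 0.03 and 0.05, and Dynlt1f, Kif16b and Dynll1 were at -0.34, -0.33 and -0.09. Kif14 was at -0.35 without wild-type no-Cre replicate 1, and Dctn1 was at 0.15 without C201R no-Cre replicate 5.

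The difference between the genotype effects with and without Cre was tested directly in 1 fit over all 23 libraries. By edgeR 0 of 58 members were called, beside 0.0207% of all genes, and 6 had an unadjusted p under 0.05, beside 10.5% of all genes. DESeq2 called 0 and limma-voom called 1, Dynll2, beside 1.17% of all genes. Dctn1 had the smallest p, with a difference of -1.43 in log2 (SE 0.48, adjusted p = 0.338), and with the ribosomal RNA-like share as a covariate it was -0.31. Kif14, Dynlt1f, Kif26a, Dynlt1b, Kif11, Kif18a and Kif1c were at 2.94, 2.70, 2.24, 2.11, 2.05, 1.83 and 1.44 (adjusted p between 0.411 and 0.492), all low in the Cre libraries. Without wild-type no-Cre replicate 2, Dynlt1f, Kif18a and Kif1c were at 1.51, 0.80 and 0.68, and without C201R Cre replicate 6 Kif1c was at 0.73. Without wild-type no-Cre replicate 1, Kif14 was at 1.94. Kif5a and Dync1h1 were at -0.42 and -0.59 (adjusted p = 0.622 and 0.538).

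The exons of 16 members overlap exons of another gene in the files, and whether the counting used strand is not given in the sources used here, so reads of such pairs may not be separable. The overlap covered 35.3% of the exonic bases of Kif3c (with 1110002L01Rik), 29.3% of Kif20a (with Cdc23), 28.1% of Klc3 (with Ercc2), 19.2% of Kif2a (with Dimt1) and 19.1% of Kif7 (with 9330171B17Rik). Among the members called, Kif2a and Kif7 are the pair with the largest overlap, and Klc1, Kif5b, Kif6, Kif17, Kif18a and Dctn6 have smaller ones, between 0.112% and 11.8%.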

How the data were processed

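RNA bound to tagged ribosomes was sequenced in 23 libraries. Reads were aligned with Bowtie2 2.2.0 and quantified with RSEM 1.2.12, per the submitters' processing notes. The authors deposited per gene an expected count, not normalised for depth, and a TPM value per the file headers. A deposited FPKM column was left aside. What genome and gene models the reads were mapped to is not given in the sources used here. Positions and exon overlaps come from GENCODE M21 on GRCm38, which shares 37607 of the 38924 gene identifiers.

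Expected counts were rounded and tested by the quasi-likelihood test of edgeR 4.0.16, run in R 4.3.3, after TMM scaling and removal of low genes by filterByExpr (min.count 10, min.total.count 15), with Benjamini-Hochberg adjustment over all genes tested and a threshold of 0.05. Every adjusted p from the main comparisons is from this test. Each comparison of 2 groups was fitted on those groups alone, and the average Cre effect and the difference of effects on all 23 libraries. CPM values use TMM factors over all 23 libraries, with ribosomal RNA-like genes included. Fold changes are log2, Cre over no Cre or C201R over wild type. DESeq2 1.42.0, limma 3.58.1 and other settings were alternatives. The fitting script was tested on simulated counts with 200 genes changed. Of genes changed by 1 in log2, 20.4% were called for the C201R effect with Cre and 3.3% for that without Cre. Of genes changed by 2 in log2, 83.3% and 44.4% were called. A count of 0 members called between genotypes thus does not show that no member changed.

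The members and lists were chosen with earlier results of these data known. Named with values were Kif5a, Dctn1 and Dync1h1, up to 4 members of each subunit family and pathway list with the smallest p in the average Cre effect, and in the genotype comparisons the 8 members with the smallest p; members called by an alternative, beside a paralog or not called in a described family were named after their values were seen. Sample titles open with a number of unstated meaning, which served as a block or possible batch in alternatives. No 2 libraries of a group agreed within sampling noise: over 55 pairs, chi-square divided by its degrees of freedom was at least 8.53. Precision depends on counts outside ribosomal RNA, given in the opening.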

Additional observations from a re-analysis of the deposited data

Results flagged for a closer look

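Within groups of 5 or 6 libraries, 100 groups of member values were examined for a single library far from the rest, and 9 stood out, where chance alone gives about 1 in 20. Wild-type no-Cre replicate 2 held 3 of them. This library had 79.7 CPM of Kif1c (the nearest other library had 22.0 CPM) and 32.2 CPM of Kif18a (nearest 7.35 CPM). Its Dync1li1 share was 42.4% of the light intermediate chain TPM (nearest 18.7%). Its motor neuron and cholinergic marker sum was 83.2 CPM, against 22.7 to 38.4 CPM in the other no-Cre libraries. It was not among the 4 libraries left out as standing apart, and the part of cell content in its values was not tested. Kif1c also stood out in C201R Cre replicate 6, at 12.9 CPM (nearest 4.61 CPM), a library with a high oligodendrocyte marker sum.

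Dctn2 was high in C201R Cre replicate 3, at 62.1 CPM (nearest 51.5 CPM), and in C201R no-Cre replicate 4, at 51.1 CPM (nearest 20.6 CPM). Dynll2 was high in C201R no-Cre replicate 5, at 233.5 CPM (nearest 108.1 CPM), the library with the fewest counts outside ribosomal RNA. Klc2 was high in C201R no-Cre replicate 1, at 69.2 CPM (nearest 39.7 CPM), and Kif19a in wild-type no-Cre replicate 6, at 11.7 CPM (nearest 6.14 CPM).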

How the results depend on the processing

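Counts of called members moved by over 1.5 times in these cases. The average Cre effect called 24 members with library totals only (18 higher and 6 lower) and 25 with a filter at 5 CPM (of 37 tested), against 39. The Cre effect in wild type called 7 with library totals only, against 29, and that in C201R called 15 within the 1 shared title number, against 23. With library totals only, the Cre effect in C201R split into 17 higher and 1 lower. The C201R effect with Cre called 2 with DESeq2, 3 with limma-voom and 6 without the libraries that stood apart, against 0, and the difference of effects called 1 with limma-voom, against 0. Leaving out 1 library at a time gave 36 to 41 members for the average Cre effect, 26 to 31 in wild type, 21 to 25 in C201R, 0 to 4 for the C201R effect with Cre (4 without wild-type Cre replicate 2), 0 to 0 for the C201R effect without Cre and 0 to 0 for the difference. With the title number as a block, 31, 29, 0 and 0 members were called for the average Cre effect, the Cre effect in wild type, the C201R effect with Cre and the difference. No paired analysis was possible for the Cre effect in C201R or the C201R effect without Cre, because only 1 title number is shared by those groups.

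Of the values for single members, 2992 kept their direction and their side of the threshold, 153 lost the call, 33 gained it and 59 changed sign. Scaling by library totals only shifted the median over all genes from -0.28 to 0.39 (average Cre effect), from -0.14 to 1.13 (Cre effect in C201R), from 0.06 to 0.79 (C201R effect with Cre), from -0.02 to -0.35 (without Cre) and from 0.12 to 1.18 (difference). Under it the sign changed for Kif5b at 0.008 in the average, for Dync1h1, Kif5b, Kif17 and Dync2h1 at 1.62, 0.64, 0.10 and 0.24 in the Cre effect in C201R, and for Kif5a, Dctn1, Dync1h1, Dynll2, Dync1i1, Dync1li1 and Dynlrb1 at 0.44, 0.19, 0.85, 0.034, 0.22, 0.46 and 0.49 in the C201R effect with Cre. Without Cre it changed for Dctn1, Dync1h1 and Kif21b at -0.27, -0.14 and -0.22, and in the difference for Kif5a, Dctn1 and Dync1h1 at 0.86, 0.46 and 0.99.

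In the Cre effect in C201R, Dync1h1 was at 0.033 with RLE size factors, 0.034 with DESeq2, 0.29 with limma-voom, 0.093 with no filter, 0.094 without ribosomal RNA-like genes, 0.24 within the shared title number, 0.17 without title number 18405, 0.47 without the libraries that stood apart, 0.014 with all 23 libraries in 1 fit and 0.45 with the ribosomal share as a covariate. With a filter at 5 CPM, Kif5a and Dctn1 were at -0.008 and -0.16, and within the shared title number Kif5a and Dynlt3 were at -0.15 and -0.20. In the C201R effect with Cre, Dync1h1 was at 0.14 with the block, 0.12 without title number 18405 and 0.03 without the libraries that stood apart. Without Cre, Kif5a was at 0.033 with a filter at 5 CPM, 0.008 within the shared title number and 0.014 without title number 18405, Dctn1 was at -0.12 within the shared number, and Kif18a and Kif1c were at 0.11 and 0.13 with limma-voom. Leaving out 1 library at a time, the sign changed within -0.16 to 0.56 for Dctn1 and -0.16 to 0.28 for Dync1h1 in the Cre effect in C201R, within -0.15 to 0.026 for Dync1h1 in the C201R effect with Cre, and within -0.12 to 0.024 for Kif5a, -1.24 to 0.028 for Kif18a and -0.92 to 0.046 for Kif1c without Cre. The cause was not tested for any of these. Depth limits members under about 10 CPM most, of which 5 could not be tested.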
